A study of Mus musculus with 18 samples.

Results

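The genes described here are the receptors Notch1, Notch2 and Notch3, the ligands Jag1, Jag2 and Dll1, the DNA-binding factor Rbpj and the target genes Hes1 and Hey1 of the Notch pathway. They were taken by symbol from the table of reads counted over coding sequences, in which these 9 of 20655 genes were read in every library. Ribosome footprints and RNA had been sequenced from basal cells of the epidermis, taken from mouse embryos at stage E18.5, with 3 libraries of each kind in each of 3 conditions, 18 in all. HrasG12V shEif2b5 embryos (strain FR-HrasG12V, genotype HrasG12V) had received an shRNA against Eif2b5 by injection in utero at E9.5. HrasG12V shScram embryos were of the same strain and genotype and had received a scrambled shRNA. The day of injection was E9.5 in all 3 conditions. WT shScram embryos had received the scrambled shRNA and carried the reporter allele Gt(ROSA)26Sortm4, with the fluorescent cassette (ACTB-tdTomato,-EGFP) and the laboratory code Luo/J in the strain name; the genotype label of WT shScram footprint library 1 reads Rosa26 and that of the others WT. Strain and Hras genotype cannot be told apart in this design, and every group carried an shRNA, so no group shows untransduced epidermis. The labels do not say which promoter drives HrasG12V.

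Notch signalling passes between touching cells. A Delta-like or Jagged ligand on one cell pulls on a Notch receptor on its neighbour, ADAM proteases and gamma-secretase cut the receptor, and its freed intracellular domain joins RBPJ and Mastermind on DNA to switch on repressors of the HES and HEY families. In mouse epidermis the pathway is known for moving basal cells into the spinous layer, and Hras encodes a small GTPase whose G12V form is an oncogene. Eif2b5 encodes the catalytic subunit of eIF2B, which recharges the initiation factor eIF2 with GTP, so the comparisons bear on whether the levels and the ribosome loading of Notch genes differ with the oncogene and with the knockdown.

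Footprints are read from ribosomes that began at a start codon, and the bases around the start codons are shown because the Notch genes spanned a wide range of footprints per RNA. The stretches run 5′ to 3′ in the coding strand, as the GENCODE transcripts of mm10 give them, with the start codon in capitals.
Notch1: cgagcaggcATGcca
Notch2: gccccgaagATGccc
Notch3: ccggccgccATGggg
Jag1: ggcgcagcgATGcgg
Jag2: gaggcggcgATGcgg
Dll1: agcggtaccATGggc
Rbpj: cccgtagtaATGccc
Each of these 7 starts has a purine (A or G) 3 bases before the start codon, the position that matters most in the Kozak consensus. Only Notch3 and Dll1 among the 7 have the consensus G directly after it, and of these 7 genes Notch3 had the lowest and Rbpj the highest ratio of footprints to RNA in all 3 conditions. A link between the start bases and the ratio was not tested. Hes1 and Hey1 are not shown, since only genes with a promoter window were used here.

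The promoters of Rbpj and Jag2 are shown because their RNA levels moved in opposite directions between the HrasG12V groups. Both are RefSeq windows of GRCm38.p6 with 250 bases before and 50 after the start of transcription, read on the gene's strand, at chr5:53590096-53590395 (plus strand) for Rbpj and chr12:112929446-112929745 (minus strand) for Jag2. Capitals mark matches to TGGGAA, the core of the RBPJ motif, or to its reverse complement TTCCCA.
Rbpj: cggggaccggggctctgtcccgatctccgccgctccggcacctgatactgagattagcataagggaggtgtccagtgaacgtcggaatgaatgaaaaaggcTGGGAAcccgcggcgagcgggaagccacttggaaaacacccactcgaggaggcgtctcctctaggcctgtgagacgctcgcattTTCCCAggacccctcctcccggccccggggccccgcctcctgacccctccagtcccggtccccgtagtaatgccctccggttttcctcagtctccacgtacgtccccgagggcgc
Jag2: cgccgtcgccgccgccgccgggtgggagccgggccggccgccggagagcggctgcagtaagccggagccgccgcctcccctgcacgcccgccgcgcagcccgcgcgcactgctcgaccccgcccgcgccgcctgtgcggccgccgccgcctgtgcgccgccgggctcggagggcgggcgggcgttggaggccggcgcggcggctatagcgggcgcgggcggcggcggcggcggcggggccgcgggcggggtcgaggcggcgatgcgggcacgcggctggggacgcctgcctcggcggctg
The Rbpj window shown held 2 matches, at 149 bases before the start on the gene's strand and at 65 bases before it on the opposite strand. Another RefSeq window of Rbpj, at chr5:53590236-53590535, overlaps it and held 1 match, 205 bases before its own start on the opposite strand. Both windows lie inside the annotated gene, which begins at chr5:53466152. RefSeq promoter windows were found for 7 of the 9 genes, and TGGGAA stood in neither strand of those of Jag2, Notch1, Notch2, Notch3, Jag1 and Dll1. Across 32851 mouse promoter windows of the same length, 25.6% held the motif on at least 1 strand and 3.79% held it at least 2 times. A match describes letters only, and no binding was measured here.

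Coding-sequence totals ran from 3319175 to 4933298 counts in the 9 footprint libraries and from 1771365 to 5505386 in the 9 RNA libraries. Levels are in CPM, counts scaled to a common library size by TMM. Calls rest on edgeR's quasi-likelihood test, with Benjamini-Hochberg adjustment over all tested genes and a threshold of 0.05. Whether a group's libraries come from different animals is not in the labels, so a p-value reflects the spread among these libraries alone, which may be technical. Eif2b5 RNA, the target of the shRNA, ranged from 128.4 to 143.3 CPM in HrasG12V shEif2b5, from 126.6 to 388.1 in HrasG12V shScram and from 158.2 to 178.7 in WT shScram, and its footprints from 78.5 to 95.4 CPM in HrasG12V shEif2b5, from 91.9 to 102.4 in HrasG12V shScram and from 101.8 to 105.6 in WT shScram. The Eif2b5 libraries of the HrasG12V groups overlapped in both kinds, with log2 fold changes of −0.68 in RNA (SE 0.37, adjusted p = 0.257) and −0.16 in footprints (SE 0.12, adjusted p = 0.994), so the knockdown did not pass the test. The RNA estimate rests largely on 1 HrasG12V shScram library, that at 388.1 CPM, in a group with a mean of 219.8 CPM and an SD of 146. HrasG12V shScram RNA libraries 1 and 3 stood apart from the other 7 in how their reads follow GC content, and the log2 fold changes of the called Notch genes are given with and without them. Basal keratinocyte markers (7 of 7 detected) summed to 8570 CPM or more in every RNA library, endothelial markers to 12.5 CPM or less and immune markers to 16 CPM or less, and the 3 globin markers of erythroid cells were at 0 in all 18 libraries. Spinous markers were also abundant, at 33000 CPM or more of RNA, so the libraries were not of basal cells alone by these genes. Dermal fibroblast markers summed to between 358 and 2120 CPM of RNA and melanocyte markers to between 355 and 654 CPM. In bulk libraries a smaller share of cells that express a gene and less RNA per cell cannot be told apart.

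Of the 4 calls made among the Notch genes, all in RNA, 3 were between the HrasG12V groups. With the Eif2b5 shRNA, RNA of the ligands Jag2 and Dll1 was 1.62-fold and 1.69-fold that of HrasG12V shScram, and Rbpj RNA was 0.612-fold. Between HrasG12V shScram and WT shScram, Notch3 RNA was 0.712-fold. None of the 4 kept its call with offsets for coding GC and length. Leaving out HrasG12V shScram RNA libraries 1 and 3 leaves 1 library in that group, which gives too little power to keep or end a call. The values of both fits are given with the GC results. In footprints, none of the 8 tested Notch genes passed the test in any comparison, and the translation efficiency of none of the 9 did. Hey1, a basic helix-loop-helix repressor, was tested for translation efficiency only, since it had 2 to 8 footprint counts and 4 to 15 RNA counts per library and fell under the filter on low counts of either kind.

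Per kilobase of coding sequence, the only scale on which levels of different genes are compared here, Notch1 and Jag2 had the most RNA in WT shScram. Notch1 stood at 162 ± 18.3 CPM per kb and Jag2 at 155 ± 16.4 CPM per kb (SD, n = 3), and their ranges overlapped. Hes1 (95.5 ± 10.7), Notch3 (84.5 ± 9.32) and Notch2 (75.5 ± 3.03) followed, each overlapping the next, and then Jag1 at 66.7 ± 4.43, Dll1 at 32.2 ± 2.39, Rbpj at 26.6 ± 3.71 and Hey1 at 2.57 ± 0.745 CPM per kb, with no overlap between neighbours from Notch2 down. In HrasG12V shScram, Jag2 stood at 111 ± 19.6 CPM per kb and came after Notch1 (160 ± 26) and Hes1 (123 ± 24.5), with overlap between Notch1 and Hes1 and between Hes1 and Jag2. Rbpj (35.6 ± 0.612) stood above Dll1 (21 ± 9.01) there, the reverse of their order in the other groups. In HrasG12V shEif2b5, Jag2 (179 ± 16.9) and Notch1 (165 ± 22.5) led and overlapped.

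The order in footprints was another. Hes1 led in every condition, with 134 ± 15.8 footprint CPM per kb in HrasG12V shEif2b5, 144 ± 12.6 in HrasG12V shScram and 123 ± 14.3 in WT shScram, and no library of Notch1, the next gene, reached its range. Notch1 and Rbpj came after it, at 86 ± 5.81 and 54.1 ± 4.52 CPM per kb in HrasG12V shEif2b5, at 77.7 ± 12.3 and 56.2 ± 2.7 in HrasG12V shScram, and at 65.6 ± 9.71 and 63.3 ± 8.74 in WT shScram, where the ranges of Notch1 and Rbpj overlapped. Notch3 and Dll1 were the lowest but for Hey1 in all 3 groups, at 11.5 to 14.7 CPM per kb on average, and overlapped each other.

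**Figure D1:**
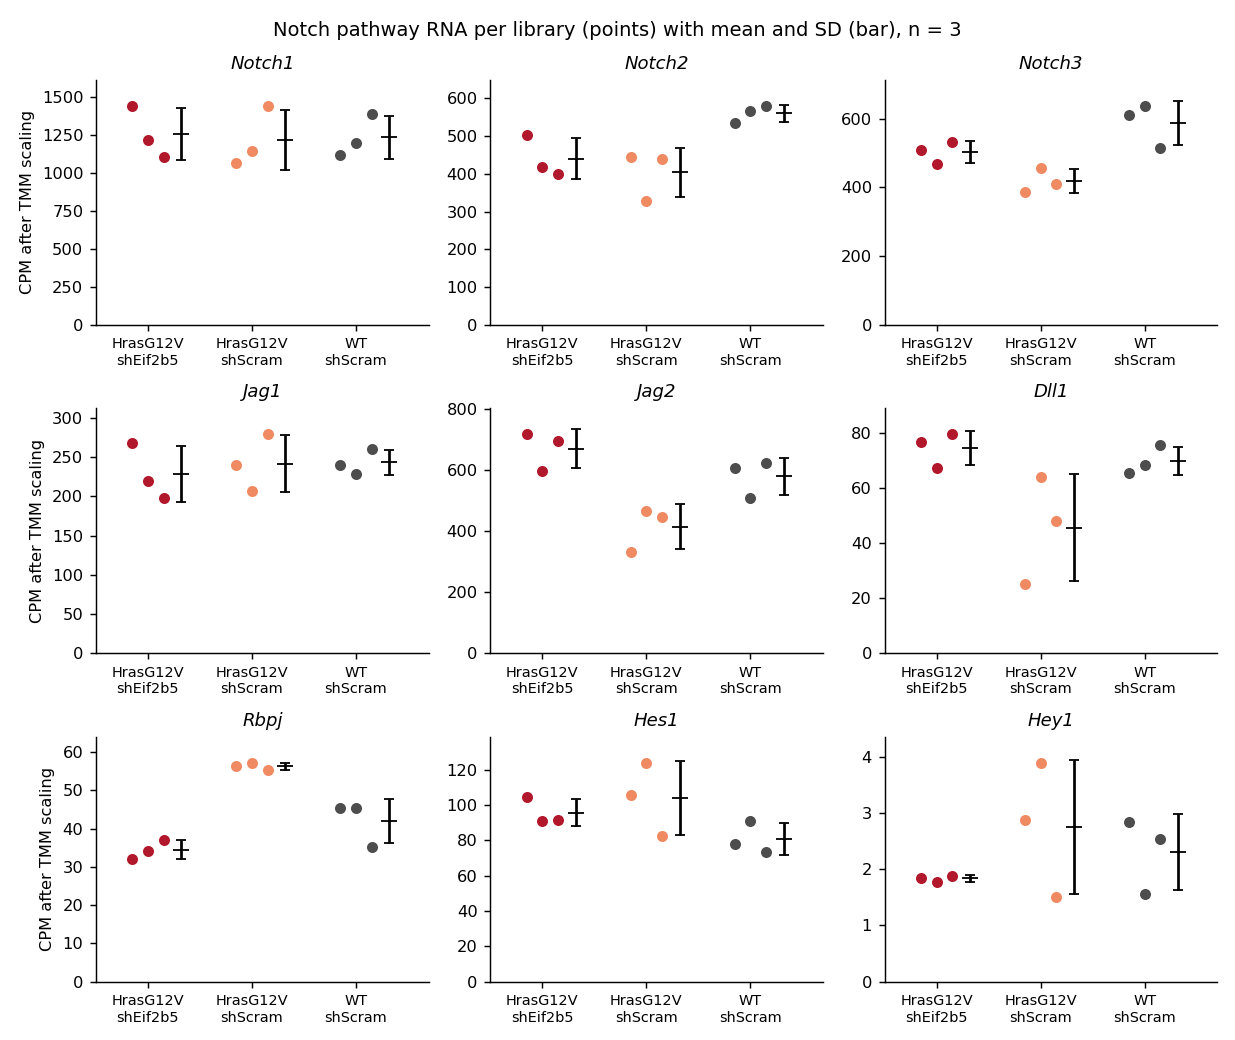
RNA level of each Notch gene (CPM after TMM scaling, each y axis from 0) in the 3 libraries of HrasG12V shEif2b5, HrasG12V shScram and WT shScram (points), with the mean and SD beside them. Jag2 and Dll1 lie lower and Rbpj higher in the HrasG12V shScram libraries than in either other group, without overlap.

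Among the receptors, Notch1, the main receptor of epidermal cells (mm10 chr2:26457903-26516663, minus strand), had 1436, 1215 and 1101 RNA CPM in HrasG12V shEif2b5, 1063, 1143 and 1438 in HrasG12V shScram and 1115, 1192 and 1385 in WT shScram. The 3 groups overlapped throughout, and the RNA log2 fold changes lay between −0.02 and 0.04. Notch2 RNA, of a receptor also found in the suprabasal layers (chr3:98013527-98150361, plus strand), stood at 502, 418 and 400 CPM in HrasG12V shEif2b5, 444, 328 and 439 in HrasG12V shScram and 536, 566 and 580 in WT shScram. Every HrasG12V library was under every WT shScram library for Notch2, and neither difference passed the test. The summed RNA of spinous keratinocyte markers (4 of 4 detected) stood lower without overlap in the same libraries, at 45100 to 58100 CPM in HrasG12V shEif2b5 and 33000 to 61100 in HrasG12V shScram, against 63800 to 96400 in WT shScram. Krt1 and Krt10 made up most of this sum (means of 42143 and 33645 CPM in WT shScram). Krtdap, another of the 4, went the other way in HrasG12V shScram against WT shScram (log2 fold change 1.15, adjusted p = 0.014). In footprints the sums overlapped, at 21900 to 67400 CPM in HrasG12V shEif2b5, 29700 to 36600 in HrasG12V shScram and 20900 to 41700 in WT shScram. The part of these markers in the Notch2 values was not tested. The log2 fold change against WT shScram was −0.35 for HrasG12V shEif2b5 (SE 0.15, adjusted p = 0.635) and −0.47 for HrasG12V shScram (SE 0.15, adjusted p = 0.0687). Reads of Notch2 overlap a predicted gene on the same strand, Gm42820, which the counting may have split from it.

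Notch3, a receptor best known from vascular smooth muscle and also made in epidermis (chr17:32120820-32166852, minus strand), had 509, 469 and 533 RNA CPM in HrasG12V shEif2b5. HrasG12V shScram libraries had 388, 457 and 411 CPM and WT shScram libraries 611, 637 and 514 CPM. All HrasG12V shScram libraries lay below all WT shScram libraries, and Notch3 fell by 0.49 on the log2 scale (SE 0.14, adjusted p = 0.0459). It was the 1 Notch gene called of 8 tested in this comparison, in which 7.7% of all 11096 tested genes were called and 3.05% were called lower. Among the 6 fits that left out a library, the call was kept only without HrasG12V shScram library 2 (2431 genes called over all, against 854). The other 5 gave log2 fold changes of −0.44 and −0.48 without HrasG12V shScram libraries 1 and 3 (adjusted p = 0.153 and 0.116) and −0.47, −0.43 and −0.58 without WT shScram libraries 1, 2 and 3 (adjusted p = 0.151, 0.172 and 0.052). Entering coding GC and length as offsets gave a log2 fold change of −0.03 (adjusted p = 0.91). Markers of mural cells, the vessel wall cells known to make Notch3, summed to between 1.11 and 14.5 RNA CPM in HrasG12V shScram and between 2.17 and 16.6 in WT shScram. Their part in the Notch3 result was not tested. Between HrasG12V shEif2b5 and HrasG12V shScram the Notch3 libraries did not overlap, and the log2 fold change of 0.27 (SE 0.14, adjusted p = 0.219) did not pass the test. With the GC and length offsets that value was −0.23 (adjusted p = 0.266), so its direction depended on them, and that of Notch2 did too, at 0.12 without and −0.19 with the offsets.

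Among the ligands, Jag2, which basal keratinocytes make (chr12:112907819-112929776, minus strand), had 717, 599 and 697 RNA CPM in HrasG12V shEif2b5, 331, 466 and 448 in HrasG12V shScram and 607, 509 and 623 in WT shScram. The HrasG12V shScram libraries were lower than all 6 others. Jag2 rose by 0.70 on the log2 scale in HrasG12V shEif2b5 against HrasG12V shScram (SE 0.16, adjusted p = 0.0132). Against WT shScram its log2 fold change was 0.21 in HrasG12V shEif2b5 (SE 0.16, adjusted p = 0.85) and −0.48 in HrasG12V shScram (SE 0.16, adjusted p = 0.0715), neither past the test. The rise of Jag2 between the HrasG12V groups lost its call without HrasG12V shEif2b5 library 1 (0.65, adjusted p = 0.056) or 3 (0.67, adjusted p = 0.068), or without HrasG12V shScram library 1 (0.55, adjusted p = 0.0667). Without HrasG12V shScram library 2, Jag2 was called lower in HrasG12V shScram than in WT shScram (−0.58, adjusted p = 0.0149). That fit called 2431 genes over all, against 854 with every library. DESeq2 called Jag2 in this comparison with all libraries (adjusted p = 0.043), as it did Notch2 (adjusted p = 0.0411).

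Dll1, the Delta-like ligand of basal keratinocytes (chr17:15367354-15376872, minus strand), had 76.6, 67.4 and 79.4 RNA CPM in HrasG12V shEif2b5, 25, 63.8 and 47.9 in HrasG12V shScram and 65.6, 68.4 and 75.6 in WT shScram. The HrasG12V shScram libraries were again lowest and the most spread, and library 2 of that group, at 63.8 CPM, lay just under the lowest WT shScram library, at 65.6 CPM. Dll1 rose by 0.76 on the log2 scale in HrasG12V shEif2b5 against HrasG12V shScram (SE 0.24, adjusted p = 0.0484), and its log2 fold change against WT shScram was 0.09 in HrasG12V shEif2b5 (adjusted p = 0.972) and −0.67 in HrasG12V shScram (SE 0.24, adjusted p = 0.0931). The rise of Dll1 between the HrasG12V groups kept its call in 1 of the 6 fits without a library, that without HrasG12V shScram library 2 (1.04, adjusted p = 0.00145). It was 0.74, 0.83 and 0.71 without HrasG12V shEif2b5 libraries 1, 2 and 3 (adjusted p = 0.132, 0.0734 and 0.155) and 0.43 and 0.84 without HrasG12V shScram libraries 1 and 3 (adjusted p = 0.164 and 0.0954). Without HrasG12V shScram library 2, Dll1 was also called lower in HrasG12V shScram than in WT shScram (−0.95, adjusted p = 0.00392). Leaving out that library raised the calls over all genes from 1444 to 3150 between the HrasG12V groups and from 854 to 2431 in this comparison. Dll1 shares its locus with a gene on the opposite strand, A930024N18Rik, as Notch3 does with Gm17276, and since no strand setting is given in the sources used here, reads of the pairs cannot be told apart. Jag1, the remaining ligand, which is mainly suprabasal (chr2:137081456-137116644, minus strand), had 198 to 268 RNA CPM in HrasG12V shEif2b5, 207 to 279 in HrasG12V shScram and 229 to 261 in WT shScram, and its RNA log2 fold changes were −0.09, −0.09 and −0.01 in HrasG12V shEif2b5 against HrasG12V shScram, in HrasG12V shEif2b5 against WT shScram and in HrasG12V shScram against WT shScram, all with overlapping libraries.

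Rbpj, which anchors the Notch complex on DNA and represses targets without it (chr5:53466152-53657362, plus strand), had 32.2, 34 and 37.1 RNA CPM in HrasG12V shEif2b5. HrasG12V shScram libraries had 56.3, 57.2 and 55.3 CPM and WT shScram libraries 45.3, 45.5 and 35.3 CPM. The HrasG12V shScram libraries lay close together and above the other 6. Rbpj fell by 0.71 on the log2 scale in HrasG12V shEif2b5 against HrasG12V shScram (SE 0.16, adjusted p = 0.0132), with log2 fold changes against WT shScram of −0.28 in HrasG12V shEif2b5 (adjusted p = 0.81) and 0.43 in HrasG12V shScram (SE 0.16, adjusted p = 0.1). The fall of Rbpj lost its call without HrasG12V shEif2b5 library 1 (−0.65, adjusted p = 0.0598) or 3 (−0.76, adjusted p = 0.0541) and kept it in the other 4 fits without a library. RefSeq lists 3 pseudogene copies, Rbpj-ps1 and Rbpj-ps2 on chromosome 4 and Rbpj-ps3 on chromosome 6, none of them in the count table, so the Rbpj level is uncertain by any reads they share.

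Hes1, the repressor that Notch turns on in spinous cells (chr16:30064384-30067796, plus strand), had 104, 91.1 and 91.6 RNA CPM in HrasG12V shEif2b5, 106, 124 and 82.5 in HrasG12V shScram and 78.1, 90.9 and 73.4 in WT shScram. It was above all WT shScram libraries in all 3 of HrasG12V shEif2b5, with a log2 fold change of 0.25 (SE 0.16, adjusted p = 0.824), and overlapped in HrasG12V shScram, with 0.36 (SE 0.16, adjusted p = 0.179). Between the HrasG12V groups it was −0.11 (adjusted p = 0.688). The offsets for coding GC and length gave 0.57 (adjusted p = 0.0255) for HrasG12V shScram against WT shScram, which brought Hes1 past the threshold. Hey1 (chr3:8663359-8667256, minus strand) had 1.77 to 1.88 RNA CPM in HrasG12V shEif2b5, 1.51 to 3.89 in HrasG12V shScram and 1.55 to 2.83 in WT shScram.

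Set against all genes, 3 of the 8 tested Notch genes were called in RNA between HrasG12V shEif2b5 and HrasG12V shScram, where 13% of 11096 genes were (5.23% higher and 7.79% lower). An unadjusted p under 0.05 was found for the same number of Notch genes, 3, and for 30.5% of all genes. Notch3, Jag2 and Dll1 were higher and Rbpj lower without overlap of the libraries, 4 of 8, against 28.6% of all genes (13.4% higher and 15.2% lower). Of the same 8, none was called in RNA between HrasG12V shEif2b5 and WT shScram, where 0.324% of genes were; 1 had an unadjusted p under 0.05, as 7.32% of all genes did, and DESeq2 called none. There Hes1 was higher and Notch2 lower without overlap, 2 of 8, against 16% of all genes (7.68% higher and 8.34% lower). Between HrasG12V shScram and WT shScram, 5 of the 8 did not overlap (Notch2, Notch3, Jag2 and Dll1 lower, Rbpj higher), against 26.1% of all genes (12.4% lower and 13.7% higher), 6 had an unadjusted p under 0.05, against 25.3%, and the median RNA log2 fold change of the 8 was −0.24, against 0.01 over all genes. These comparisons share groups: both that show RNA calls contain the HrasG12V shScram libraries.

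Over all genes, RNA differences went with the base composition of coding sequences. The HrasG12V shScram RNA libraries 1 and 3 had fewer reads the higher a gene's GC content: Spearman's rho between coding GC and a library's deviation from the mean of its kind, across 11046 genes, was −0.45 and −0.59 there. It was 0.033 in HrasG12V shScram library 2, 0.323, 0.13 and 0.489 in HrasG12V shEif2b5, and 0.321, 0.257 and −0.0749 in WT shScram. Footprint libraries had trends too. Across 11398 genes their rho with coding GC ran from −0.214 (WT shScram library 1) to 0.289 (WT shScram library 2). With coding length it ran from −0.34 (HrasG12V shScram library 1) to 0.186 (HrasG12V shEif2b5 library 1). Coding GC was 62.4% for Jag2, 62.2% for Hes1, 61% for Notch3, 59.2% for Hey1, 58.9% for both Dll1 and Notch1, 56.4% for Notch2, 52.9% for Jag1 and 48.9% for Rbpj, where the median mouse coding gene had 51.8%. In HrasG12V shEif2b5 against HrasG12V shScram, the 1139 genes with 60 to 65% GC had a median RNA log2 fold change of 0.376, and Jag2 lay above their upper quartile of 0.586. Dll1 likewise lay above the upper quartile of its 2972 genes with 55 to 60% GC (median 0.177, upper quartile 0.403), and Rbpj lay below the lower quartile of its 2367 genes with 45 to 50% GC (median −0.23, lower quartile −0.501). For HrasG12V shScram against WT shScram, Notch3 lay within the quartiles of its GC class, from −0.507 to −0.04. Hes1 went against the trend, with −0.11 between the HrasG12V groups, under the lower quartile of 0.127 of its class, and 0.36 in HrasG12V shScram against WT shScram, above the upper quartile of −0.04.

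When coding GC and length were entered as offsets, the RNA log2 fold changes between HrasG12V shEif2b5 and HrasG12V shScram became 0.20 for Jag2 (adjusted p = 0.458), 0.48 for Dll1 (adjusted p = 0.185) and −0.54 for Rbpj (adjusted p = 0.063), and no Notch gene was called. Without HrasG12V shScram RNA libraries 1 and 3 they were 0.53 for Jag2, 0.22 for Dll1 and −0.73 for Rbpj. Notch3 was then −0.36 in HrasG12V shScram against WT shScram. In these fits the 1 remaining library is assumed to vary like the other groups, so they cannot decide a call. Those 2 libraries and WT shScram RNA library 3 were also the 3 deepest, with 4310239 counts or more against 2812627 or fewer in the other 6 RNA libraries. The 6 shallower libraries hold 1 library of HrasG12V shScram, library 2, so that a fit to them alone repeats the contrast above without WT shScram library 3. In it Jag2 differed by 0.53, Dll1 by 0.22 and Rbpj by −0.73 between HrasG12V shEif2b5 and HrasG12V shScram, and Notch3 by −0.44 between HrasG12V shScram and WT shScram. The 3 deeper libraries include none of HrasG12V shEif2b5, so the comparison could not be made within them. The RNA sum of basal keratinocyte markers was also lowest in HrasG12V shScram, at 8570 to 11900 CPM, against 13300 to 15500 in HrasG12V shEif2b5 and 12700 to 17100 in WT shScram. Of the basal markers, Krt5, Krt14, Krt15, Itgb4 and Col17a1 had their lowest mean there and Itga6 did not (393 CPM, against 352 in HrasG12V shEif2b5 and 386 in WT shScram). The remaining marker of that sum is not given here. In footprints the basal sum of HrasG12V shScram (10200 to 14400 CPM) overlapped HrasG12V shEif2b5 (13500 to 15600) and WT shScram (8770 to 13000). Hair follicle markers summed to 2510 to 3370 RNA CPM in HrasG12V shEif2b5, 1770 to 2060 in HrasG12V shScram and 1870 to 2780 in WT shScram. Krt17 made up most of this sum, with mean RNA of 2160, 1358 and 1491 CPM in these groups. The part of the basal and hair follicle markers in the Jag2, Dll1 and Rbpj differences was not tested.

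**Figure D2:**
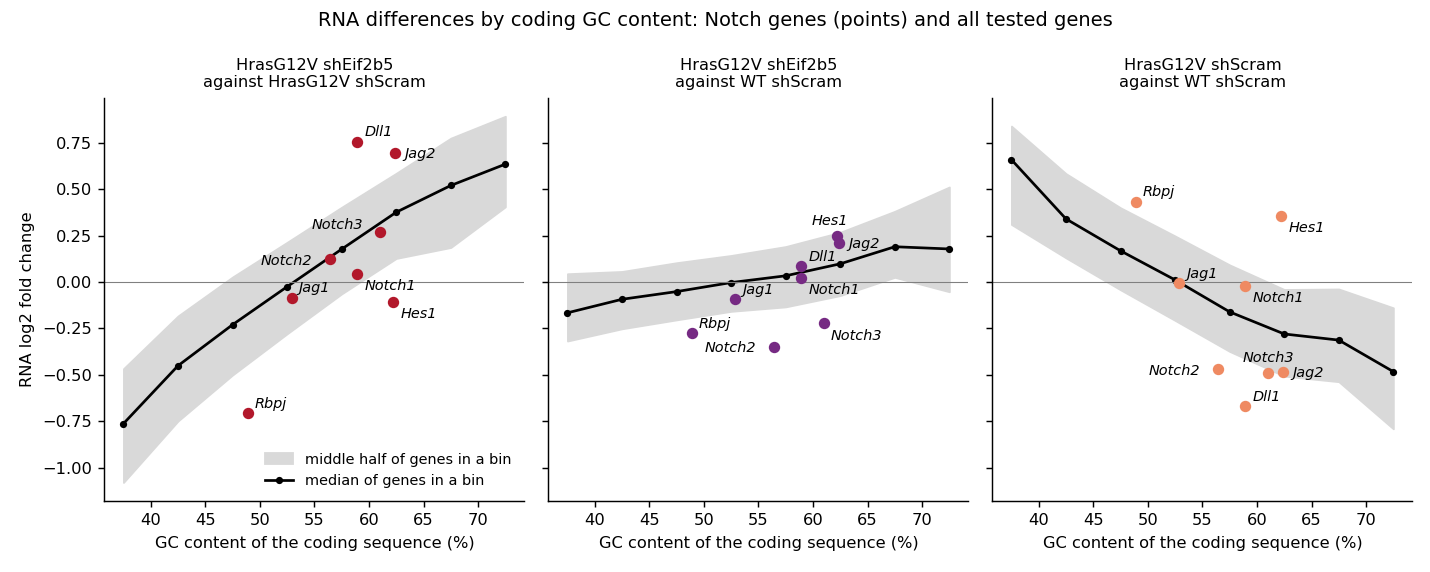
RNA log2 fold change (y axis) against GC content of the coding sequence in percent (x axis) for the 8 tested Notch genes (points) in each comparison, with the median (line) and interquartile range (grey) of all tested genes in bins of 5 percentage points. The medians climb with GC in HrasG12V shEif2b5 against HrasG12V shScram and decline with GC in HrasG12V shScram against WT shScram.

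Between HrasG12V shEif2b5 and HrasG12V shScram the 8 footprint log2 fold changes lay between −0.15 (Dll1) and 0.18 (Notch2), all libraries overlapped, and every adjusted p was 0.994. No gene at all (0%) was called there by edgeR, 519 genes (4.53%) and none of the 8 had an unadjusted p under 0.05, DESeq2 called 1 gene, and 11.1% of all genes did not overlap. The 95% intervals still held sizeable differences, from −0.32 to 0.37 for Jag2, from −0.64 to 0.33 for Dll1 and from −0.32 to 0.21 for Rbpj, the genes called in RNA. Jag2 had 186, 181 and 150 footprint CPM in HrasG12V shEif2b5, 153, 158 and 198 in HrasG12V shScram and 126, 158 and 210 in WT shScram. Dll1 had 21.4 to 34.6 footprint CPM in HrasG12V shEif2b5, 25 to 41.5 in HrasG12V shScram and 22 to 35.8 in WT shScram. Rbpj had 93.5, 80.3 and 82.3 footprint CPM in HrasG12V shEif2b5, 92.7, 89 and 84.3 in HrasG12V shScram and 116, 92 and 91.7 in WT shScram.

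Against WT shScram, footprints of receptors and of Jag1 were higher in both HrasG12V groups by estimates that did not pass the test. Jag1 had 206, 211 and 151 footprint CPM in HrasG12V shEif2b5, 181, 196 and 212 in HrasG12V shScram and 124, 153 and 151 in WT shScram. All HrasG12V shScram libraries were above all WT shScram libraries for Jag1, with a log2 fold change of 0.46 (SE 0.14, unadjusted p = 0.00358, adjusted p = 0.114), and HrasG12V shEif2b5 gave 0.41 (SE 0.14, adjusted p = 0.177) with overlap. The GC and length offsets gave Jag1 0.49 in HrasG12V shScram against WT shScram (adjusted p = 0.0394), past the threshold.

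Notch1 had 658, 694 and 606 footprint CPM in HrasG12V shEif2b5, 508, 571 and 691 in HrasG12V shScram and 421, 568 and 506 in WT shScram. Notch2 had 249, 306 and 282 footprint CPM in HrasG12V shEif2b5, 219, 240 and 280 in HrasG12V shScram and 169, 217 and 229 in WT shScram. Both were above WT shScram in all 3 HrasG12V shEif2b5 libraries, with footprint log2 fold changes of 0.39 for Notch1 (SE 0.14, adjusted p = 0.183) and 0.44 for Notch2 (SE 0.14, adjusted p = 0.126). For Notch3, footprints stood at 78 to 116 CPM in HrasG12V shEif2b5, 75.8 to 108 in HrasG12V shScram and 64.1 to 104 in WT shScram, and Hes1 footprints at 105 to 129 CPM in HrasG12V shEif2b5, 115 to 134 in HrasG12V shScram and 95.9 to 118 in WT shScram. Of all 11448 genes tested in footprints, 0.97% were called between HrasG12V shEif2b5 and WT shScram and 1.7% between HrasG12V shScram and WT shScram, against 0 of 8 Notch genes in either (3 and 1 of them with an unadjusted p under 0.05, against 14.4% and 14.3% of all genes; DESeq2 also called none of the 8). Libraries that did not overlap were found for 2 of 8 and 1 of 8 Notch genes in these comparisons, all of them higher, against 16.1% (8.32% higher) and 20.3% (10.4% higher) of all genes. The median footprint log2 fold change of the 8 was 0.24 and 0.23, against −0.01 over all genes in each.

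**Figure D3:**
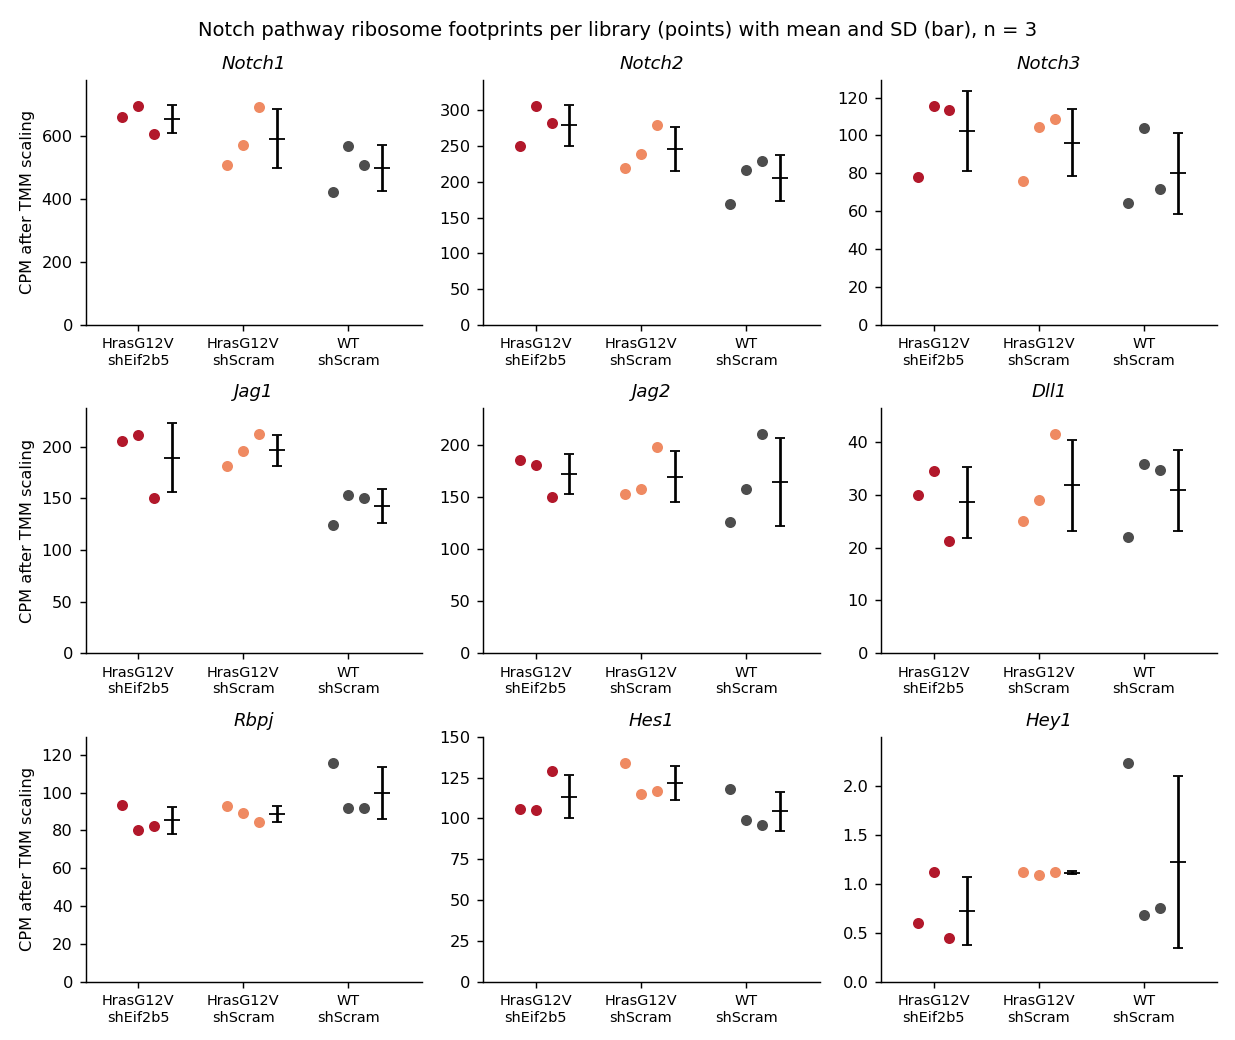
Ribosome footprint level of each Notch gene (CPM after TMM scaling, each y axis from 0) in the 3 libraries of HrasG12V shEif2b5, HrasG12V shScram and WT shScram (points), with the mean and SD beside them. Jag1 in HrasG12V shScram and Notch1 and Notch2 in HrasG12V shEif2b5 lie above WT shScram without overlap, and no difference passed the test.

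Footprints per RNA spread widely among these genes. Taken as the mean footprint CPM over the mean RNA CPM, the ratio of Rbpj was 2.48 in HrasG12V shEif2b5, 1.58 in HrasG12V shScram and 2.38 in WT shScram, at percentiles 86, 74.7 and 85.9 of 10793 genes. Notch3 was at the other end, with 0.204 in HrasG12V shEif2b5, 0.23 in HrasG12V shScram and 0.136 in WT shScram, at percentiles 4.88, 4.01 and 1.58. In HrasG12V shEif2b5 the ratio was 0.257 for Jag2, 0.385 for Dll1, 0.522 for Notch1, 0.634 for Notch2, 0.827 for Jag1 and 1.18 for Hes1. In HrasG12V shScram it was 0.409 for Jag2, 0.697 for Dll1, 0.486 for Notch1, 0.61 for Notch2, 0.811 for Jag1 and 1.17 for Hes1, and in WT shScram 0.284 for Jag2, 0.442 for Dll1, 0.405 for Notch1, 0.366 for Notch2, 0.585 for Jag1 and 1.29 for Hes1. Receptors and ligands were thus under 1 and Hes1 above 1 in each group. Highest over lowest of the 8 came to 12.2 in HrasG12V shEif2b5, 6.86 in HrasG12V shScram and 17.5 in WT shScram. All 3 receptors had ratios under those of Rbpj and Hes1 in every group. Such a ratio also carries differences between the library preparations, and it sets footprints against RNA of separate libraries, so it has no error here.

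**Figure D4:**
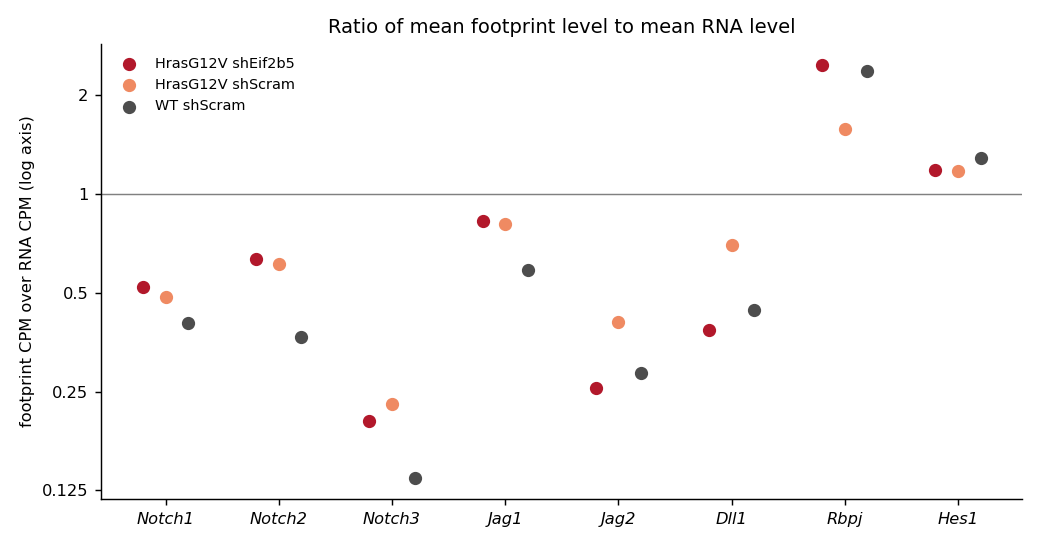
Mean footprint CPM over mean RNA CPM (log axis) of the 8 Notch genes in HrasG12V shEif2b5, HrasG12V shScram and WT shScram (n = 3 libraries of each kind per group, ratio of means without an error). Rbpj and Hes1 stand above 1 and the receptors and ligands below it, with Notch3 lowest in each group.

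Translation efficiency, tested as the difference between the footprint and the RNA fold change in 1 model over all 18 libraries, passed for 0 of the 9 Notch genes in each comparison, with 3 at an unadjusted p under 0.05 in each comparison that involves HrasG12V shEif2b5 and 5 in HrasG12V shScram against WT shScram. DESeq2 called 1 between the HrasG12V groups, 1 between HrasG12V shScram and WT shScram and 0 in the other comparison. Of 11990 genes, 1.86% were called between HrasG12V shEif2b5 and HrasG12V shScram, 0% between HrasG12V shEif2b5 and WT shScram and 1% between HrasG12V shScram and WT shScram. Unadjusted p-values under 0.05 were found for 17.9%, 5.55% and 14.7% of genes in these comparisons. Rbpj had a translation efficiency log2 fold change of 0.65 (SE 0.20, adjusted p = 0.0842) in HrasG12V shEif2b5 against HrasG12V shScram, Jag2 one of −0.68 (SE 0.24, adjusted p = 0.12) and Dll1 one of −0.92 (SE 0.38, adjusted p = 0.204), each opposite in sign to its RNA. These signs follow from the subtraction of the RNA change, since the footprint log2 fold changes were small, at −0.05, 0.02 and −0.15. The genes called in RNA thus had no called footprint difference, and the difference between the kinds did not pass either. DESeq2 gave an adjusted p of 0.0493 for Rbpj there. Without HrasG12V shScram RNA library 2, edgeR called Rbpj (0.64, adjusted p = 0.0444), Jag2 (−0.77, adjusted p = 0.0397) and Dll1 (−1.19, adjusted p = 0.0351). That fit keeps only RNA libraries 1 and 3 of the group, those set apart by GC content. It called 1272 genes over all, against 223 with every library. Translation efficiency followed coding GC here too, with a median log2 fold change of 0.229 over genes with 45 to 50% GC, −0.13 with 55 to 60% and −0.338 with 60 to 65%. With the GC and length offsets Rbpj had 0.52 (adjusted p = 0.213), Jag2 −0.28 (adjusted p = 0.559) and Dll1 −0.68 (adjusted p = 0.328). Without HrasG12V shScram RNA libraries 1 and 3 Rbpj had 0.68, Jag2 −0.50 and Dll1 −0.37.

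For HrasG12V shScram against WT shScram, the translation efficiency log2 fold change was 0.73 for Notch2 (SE 0.21, adjusted p = 0.0815; 0.026 with DESeq2; 0.82 with adjusted p = 0.0404 without WT shScram footprint library 3), 0.75 for Notch3 (SE 0.25, adjusted p = 0.138) and −0.60 for Rbpj (SE 0.20, adjusted p = 0.137). Without HrasG12V shScram RNA libraries 1 and 3 these were 1.03 for Notch2, 0.61 for Notch3 and −0.64 for Rbpj. With the GC and length offsets they were 0.50 for Notch2 (adjusted p = 0.223), 0.43 for Notch3 (adjusted p = 0.29) and −0.51 for Rbpj (adjusted p = 0.233). For HrasG12V shEif2b5 against WT shScram it was 0.79 for Notch2 (SE 0.21), whose unadjusted p of 0.00084 ranked 9 among all genes with an adjusted p of 0.734, and 0.57 for Notch3 (SE 0.25, adjusted p = 0.874). Jag1 had 0.49 (SE 0.21, adjusted p = 0.874) and 0.47 (SE 0.21, adjusted p = 0.296) in HrasG12V shEif2b5 and HrasG12V shScram, each against WT shScram. Both sets of values use the same WT shScram libraries. Hey1, at its few counts, had intervals from −2.1 to 1.39 or of similar width.

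**Figure D5:**
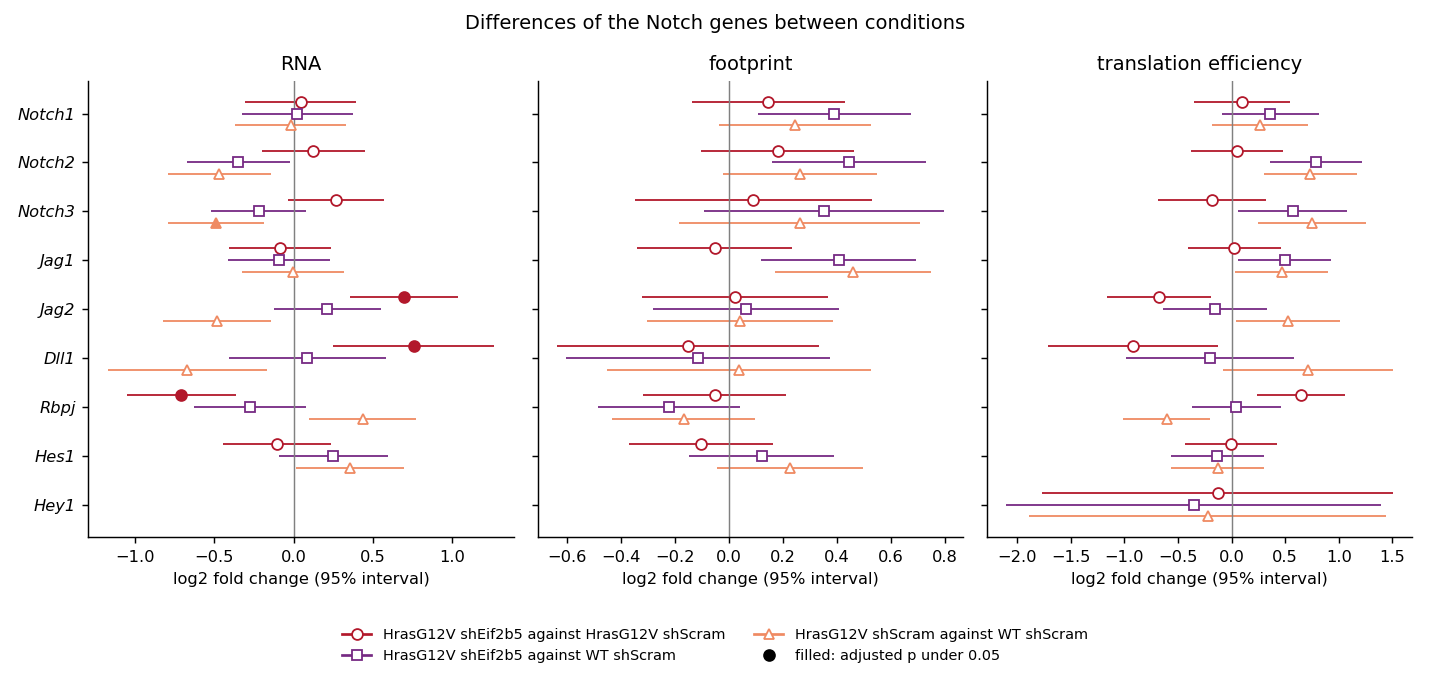
Log2 fold changes (points) with 95% intervals (lines) of the Notch genes in RNA, footprints and translation efficiency for the 3 comparisons; filled points have an adjusted p under 0.05 and each panel has its own x axis. The 4 filled points are Jag2, Dll1 and Rbpj in RNA of HrasG12V shEif2b5 against HrasG12V shScram and Notch3 in RNA of HrasG12V shScram against WT shScram.

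Across the 18 libraries, centred within each kind, Jag2 and Dll1 varied most alike among the Notch genes (Pearson's r = 0.872), Notch1 and Jag1 next (0.8), and Jag2 and Rbpj most opposite (−0.783). The genes most like each member, out of 10585, were Ccar2 (0.952) and Dhx16 (0.925) for Jag2, Cep131 (0.94) and Dnmt3a (0.915) for Dll1, Lztfl1 and Ndufv2 (0.933 each) for Rbpj, and Pfkl (0.948) and Thop1 (0.89) for Notch3. For Notch1 they were Copg1 (0.859) and Dicer1 (0.853), for Notch2 Ap1b1 (0.888) and Ank3 (0.872), for Jag1 Gfpt1 (0.843) and Atp5a1 (0.822), and for Hes1 Set (0.773) and Mrpl48 (0.753). These values describe shared variation of libraries, which includes their trend with GC content.

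Beyond the 9 genes, a list of 56 others of the pathway was read in the same way. Nrarp, a Notch target that dampens signalling, stood at 58.2 to 112 RNA CPM and 16.9 to 31.7 footprint CPM and Dlk2, a non-canonical ligand, at 22.1 to 52.9 RNA CPM. Hes6 stood at 6.69 to 32.8 RNA CPM and Dlk1 at 0.74 to 28.4. None of these 4 genes, chosen after their levels were seen, was called. Several other receptors, ligands and targets were scarce. Dll4 had 0 footprint counts in HrasG12V shEif2b5, where 3 counts over the group would be 0.206 CPM, and no more than 0.837 CPM in any library of either kind. Hes5, the other classic HES target, likewise had 0 footprint counts in HrasG12V shEif2b5 and at most 1.41 CPM in any library, and Hey2 at most 0.672 CPM. Notch4 reached at most 3.33 CPM, Dll3 at most 4.51 CPM, and Heyl stood at 5.34 to 11.8 CPM over both kinds.

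Of the 56, 43 were tested in footprints and none was called in any comparison, with 2 to 4 at an unadjusted p under 0.05, none by DESeq2 and medians between −0.02 and 0. Footprint calls over all genes were 0% between the HrasG12V groups. They were 0.97% in HrasG12V shEif2b5 against WT shScram and 1.7% in HrasG12V shScram against WT shScram. Unadjusted p-values under 0.05 came to 4.53%, 14.4% and 14.3% of all genes in that order. Of 47 tested for translation efficiency none was called, with 0 to 3 at an unadjusted p under 0.05 and 1 by DESeq2 (Psenen, in HrasG12V shScram against WT shScram). In the same order, 1.86%, 0% and 1% of all genes were called for translation efficiency. An unadjusted p under 0.05 was found for 17.9%, 5.55% and 14.7%. In RNA, 45 of the 56 were tested. The genes called between HrasG12V shEif2b5 and HrasG12V shScram included Spen, Epn1 and Eogt, in a comparison where 13% of all genes were called. DESeq2 called these 3 as well. Spen, a corepressor that binds RBPJ, rose by 0.53 (SE 0.15, adjusted p = 0.0297) and Epn1, an endocytic epsin used in ligand cells, by 0.52 (SE 0.15, adjusted p = 0.0343), while Eogt, which adds O-GlcNAc to EGF repeats of Notch, fell by 0.89 (SE 0.20, adjusted p = 0.0128). Spen had 425, 359 and 390 RNA CPM in HrasG12V shEif2b5, 249, 324 and 242 in HrasG12V shScram and 334, 402 and 340 in WT shScram. Eogt had 20.7, 32.6 and 25.8 RNA CPM in HrasG12V shEif2b5, 46.4, 41.1 and 57.8 in HrasG12V shScram and 36.8, 28.4 and 38.9 in WT shScram. For HrasG12V shScram against WT shScram, edgeR called 1 of the 45, against 7.7% of all genes, and DESeq2 called 2, Dtx2 and Numbl. The edgeR call was Dtx2, a Deltex ubiquitin ligase, which fell by 0.64 (SE 0.14, adjusted p = 0.0126). None of the 45 was called in HrasG12V shEif2b5 against WT shScram, by edgeR (1 at an unadjusted p under 0.05) or DESeq2. Of all genes, 0.324% were called by edgeR in that comparison and 7.32% had an unadjusted p under 0.05. The median RNA log2 fold change of the tested genes of this list was −0.08, −0.06 and 0.01 in HrasG12V shEif2b5 against HrasG12V shScram, HrasG12V shEif2b5 against WT shScram and HrasG12V shScram against WT shScram, against −0.01, 0 and 0.01 over all genes. With the GC and length offsets, Eogt kept its call and Spen, Epn1 and Dtx2 did not (Eogt log2 fold change −0.67, adjusted p = 0.0409). Without HrasG12V shScram RNA libraries 1 and 3, 1 library is left in that group, so calls of these 4 genes cannot be decided. Leaving out 1 library at a time, the calls of Eogt and Dtx2 were kept in 3 of 6 fits, and those of Spen and Epn1 in 2, with log2 fold changes from −1.07 to −0.73 for Eogt, −0.70 to −0.58 for Dtx2, 0.46 to 0.68 for Spen and 0.38 to 0.67 for Epn1.

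A list of 21 genes of the basal to spinous switch, which Notch is known to promote, had 20 tested in RNA and footprints. In RNA edgeR called 4 of the 20 between the HrasG12V groups, 2 between HrasG12V shScram and WT shScram and 0 between HrasG12V shEif2b5 and WT shScram, where 13%, 7.7% and 0.324% of all genes were called. In the last of these, 4 of the 20 had an unadjusted p under 0.05, against 7.32% of all genes. DESeq2 called 4, 6 (Krt1, Krt5, Krt14, Krt15, Krtdap and Ppl) and 2 (Dsg1a and Krt15) in these comparisons. In RNA of HrasG12V shEif2b5 against HrasG12V shScram, the basal keratins Krt5 (log2 fold change 0.61, SE 0.19, adjusted p = 0.042) and Krt14 (0.66, SE 0.19, adjusted p = 0.029) rose. Krtdap, a marker of spinous cells, fell by 1.04 (SE 0.24, adjusted p = 0.0151), and the desmosomal cadherin Dsg1a fell by 0.70 (SE 0.17, adjusted p = 0.0167). Krt1 and Krt10, also spinous markers, were not called in this comparison. Their RNA means were 28809 and 23184 CPM in HrasG12V shEif2b5, against 28100 and 21430 in HrasG12V shScram. Krtdap had 323, 200 and 168 RNA CPM in HrasG12V shEif2b5, 564, 385 and 472 in HrasG12V shScram and 151, 244 and 247 in WT shScram, and rose by 1.15 (SE 0.24, adjusted p = 0.014) in HrasG12V shScram against WT shScram. Krt15, a basal keratin, fell by 0.98 there (SE 0.17, adjusted p = 0.004), and kept its call with the GC and length offsets (−0.88, adjusted p = 0.00477), as none of the other 5 calls of this list did. In footprints 0 of the 20 were called in any comparison, with 1 to 5 at an unadjusted p under 0.05 and none by DESeq2. Of all genes, 0% to 1.7% were called in footprints over these comparisons, and 4.53% to 14.4% had an unadjusted p under 0.05. Of 6 fits that each left out 1 library, Krt15 kept its call in 6, Dsg1a in 3 (log2 fold changes from −0.83 to −0.58), Krt14 in 2 (0.58 to 0.77) and Krt5 in 1 (0.49 to 0.79). Krtdap kept its call in 2 between the HrasG12V groups (−1.36 to −0.86) and in 3 against WT shScram (0.94 to 1.27). Without HrasG12V shScram RNA libraries 1 and 3 together, 1 library is left in that group, so calls cannot be decided. The log2 fold changes were then 0.32 for Krt5, 0.47 for Krt14, −0.49 for Dsg1a and −0.72 for Krt15. Those of Krtdap were −0.73 and 0.84 in its 2 comparisons.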

How the data were processed

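Counts of reads per gene over coding sequences, raw and not normalized, were deposited by the authors in 1 table for 9 footprint and 9 RNA libraries. Bowtie, TopHat2 and HTSeq and the build mm10 are named, per the submitters' processing notes; versions and the strand setting are not given in the sources used here. CPM after TMM scaling were computed from the counts. Genes past filterByExpr (minimum count 10, minimum total 15) were tested in R 4.3.3 with edgeR 4.0.16 (glmQLFit, glmQLFTest), with 1 fit over the 9 libraries of a kind and, for translation efficiency, an interaction term over all 18. This gave 11448 genes in footprints, 11096 in RNA and 11990 for translation efficiency. P-values were adjusted by Benjamini-Hochberg, and adjusted p under 0.05 made a call. The script was tested on simulated data. Symbols were matched to GENCODE M21 for coding length and GC (98.7% of 20655). Promoters are from RefSeq.

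Alternatives were DESeq2 1.42.0 (size factors and Wald test), other filters, a replicate block, fits of 2 conditions only, and leaving out libraries. Offsets for coding GC and length, a block of footprint and RNA libraries of the same condition and number, and leaving out the 3 deepest RNA libraries were chosen after seeing the data. The Notch genes and the lists were chosen with earlier results of these data known. All 9 Notch genes are named, and of the wider pathway list the called genes, of which 1 is not reported here, plus Notch4, Dll3, Dll4, Hes5, Hey2 and Heyl. Of the differentiation list up to 6 called genes are named. The 2 genes most like each member by Pearson's r of log2 CPM (prior count 0.5), computed from the deposited counts, are given. Intervals cover 95%, and an exact test of 3 against 3 libraries cannot go below p = 0.1. No WT shEif2b5 group was analysed here.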

Additional observations from a re-analysis of the deposited data

How the results depend on the processing

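Of 1261 tests of the Notch genes under alternatives, 1219 kept their side of the threshold, 30 lost and 12 gained a call, none reversed a call, and 82 changed sign without a call on either side. DESeq2's size factors, a filter at a mean of 10 CPM and a TMM over all 18 libraries changed no call of a Notch gene; where a call changed, the cause was not tested. The number of Notch genes called in RNA between the HrasG12V groups (3) was 0 with GC and length offsets. That of HrasG12V shScram against WT shScram in RNA (1) was 3 with DESeq2's test and 0 with only the 2 conditions compared. In the same comparison it was 1 in footprints with the offsets, and in translation efficiency DESeq2 gave 1, as it did between the HrasG12V groups (edgeR 0 in each). Fits without HrasG12V shScram RNA libraries 1 and 3, or without the 3 deep RNA libraries, leave 1 library in that group, so calls lost in them decide nothing. With only the 2 conditions compared, the rise of Dll1 RNA between the HrasG12V groups lost its call (adjusted p = 0.0929).

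Over all genes, footprint calls between the HrasG12V groups (0) were 1 with no filter and 1 with DESeq2. Footprint calls of HrasG12V shEif2b5 against WT shScram (111) were 216 with no filter, 231 with DESeq2 and 44 with 2 conditions only. RNA calls between the HrasG12V groups (1444) were 876 with 2 conditions only, 630 with the offsets, 17 without HrasG12V shScram libraries 1 and 3 and 105 without the 3 deep libraries. Those of HrasG12V shEif2b5 against WT shScram (36) were 72 with no filter, 64 with DESeq2, 123 with 2 conditions only, 124 without those 2 libraries and 215 without the 3 deep ones. Those of HrasG12V shScram against WT shScram (854) were 389, 415, 47 and 84 with 2 conditions only, the offsets, without the 2 and without the 3 libraries. Translation efficiency calls between the HrasG12V groups (223) were 442 with DESeq2, 99 with the offsets and 2 without the 2 libraries, and those of HrasG12V shScram against WT shScram (120) were 190 with no filter, 263 with DESeq2, 42 with 2 conditions only, 79 with the offsets and 8 without the 2 libraries.

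Leaving out 1 library at a time, in the order HrasG12V shEif2b5 against HrasG12V shScram, HrasG12V shEif2b5 against WT shScram and HrasG12V shScram against WT shScram, gave 0 to 31, 37 to 407 and 73 to 559 footprint calls, 197 to 3150, 12 to 20 and 189 to 2431 RNA calls, and 7 to 1272, 0 to 18 and 10 to 631 translation efficiency calls. Notch genes called numbered 0 to 3 in RNA and 0 to 3 in translation efficiency between the HrasG12V groups, and 0 to 3 and 0 to 1 between HrasG12V shScram and WT shScram.

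With the replicate block, Notch3 RNA lost its call in HrasG12V shScram against WT shScram (adjusted p = 0.0802), leaving 0 Notch genes called there. Footprint calls with the block were 1 between the HrasG12V groups and 184 in HrasG12V shEif2b5 against WT shScram, and the block changed no other call of a Notch gene. Deviations of same-numbered libraries correlated from −0.297 to 0.288 in RNA and from −0.14 to 0.218 in footprints, and the numbers were not taken as pairing across conditions. Within a condition, footprint and RNA libraries of the same number correlated from 0.0157 to 0.279, and the footprint library was closest to its own number in 2 of 3, 3 of 3 and 3 of 3 cases in HrasG12V shEif2b5, HrasG12V shScram and WT shScram, a hint from the data that the design does not state. A replicate block within each condition, chosen after seeing the data, gave 361 translation efficiency calls between the HrasG12V groups and no call of a Notch gene, with the lowest adjusted p at 0.0525 for Notch2 in HrasG12V shScram against WT shScram. At 2 to 8 footprint counts per library, differences of Hey1 were not detectable at this depth.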
